A study of Homo sapiens with 6 samples.

Results

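The genes described here are the human genes named ZNF followed by a number, as far as they were expressed in these cells. Of 477 such symbols listed once in both deposited tables, 186 had a mean of at least 5 FPKM (fragments per unit of transcript length and per unit of mapped fragments) over the 6 libraries, and these 186 are called the members. The members were chosen by this mean level alone, so the levels are given as a description, with no test. The other symbols comprised 194 with a mean from 1 to under 5 FPKM and 97 under 1 FPKM, of which 11 were at 0 in every library. RNA came from the human embryonic stem cell line H1 on day 2 of differentiation towards blood, a stage at which mesoderm forms. The labels give 40 ng/ml activin A with 50 ng/ml BMP4 for all 6 cultures, the study's methods give both doses exchanged, and which holds is not known. There were 2 wild-type libraries (WT) and 2 of each knockout group, SNAI1_KO_1 and SNAI1_KO_2, in which SNAI1 had been deleted. Per the study's methods, 2 lines with frameshift mutations were made by CRISPR/Cas9, and the labels do not tie the numbers 1 and 2 to these lines. Each of the 2 tables holds 1 library of every group. The 3 libraries of the shorter table are called set A and those of the longer one set B. The study's methods state in general terms that each analysis rested on independent experiments. The labels do not say whether the libraries of a group came from separate cultures, and p-values measure only the spread between these samples, which may be technical.

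Most ZNF-named genes encode proteins with C2H2 zinc fingers, short loops in which cysteine and histidine residues hold a zinc ion and which usually read DNA. Many of them carry a KRAB domain in front of the fingers. This domain recruits TRIM28, which brings in histone H3 lysine 9 methylation and silences transposable elements and genes nearby. Others carry a SCAN domain, through which proteins pair, and some bear the ZNF name without being C2H2 DNA-binding proteins at all. SNAI1 is itself a C2H2 repressor, which binds E-box sequences and is known for its part in the epithelial to mesenchymal transition.

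In set A SNAI1 read 37.1, 51.6 and 68.6 FPKM in WT, SNAI1_KO_1 and SNAI1_KO_2. In set B it read 36.4, 47.8 and 55.0 FPKM in the same order. Its level was thus higher in all 4 libraries labelled as knockouts, by 0.58 ± 0.074 (SE) on the log2 scale (adjusted p = 0.00461, limma). A level summed over a gene does not show a short frameshift, so the labels could not be checked by it. Every direction given here rests on the labels.

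The read depth of the libraries is unknown, since the tables give FPKM only. The members took 0.386% to 0.452% of the summed FPKM of a library, and their median level lay between 8.51 and 10.5 FPKM. The summed level of 8 early mesoderm markers was 1600 to 1670 FPKM in WT and 1090 to 1170 in the knockout libraries. That of 6 pluripotency markers was 1000 to 1030 FPKM in WT and 1190 to 1380 in the knockout libraries, and SOX2 read under 3 FPKM. The 7 amnion or trophoblast markers, which share HAND1 with the mesoderm list, summed to 245 to 270 FPKM in WT and 85.9 to 97.9 in the knockout libraries. A sum follows its most abundant genes, and within each of these lists single markers went both ways (adjusted p under 0.05, limma). Of the 4 amnion or trophoblast markers tested 2 were lower and 2 higher. Of the 8 mesoderm markers 6 were lower and 1 higher, and of the 6 pluripotency markers 1 was lower and 3 were higher. Endoderm markers (5) summed to 79.6 to 282 FPKM in WT and 129 to 356 in the knockout libraries. Neuroectoderm markers (5, with SOX1, LHX2 and ZIC1 under 1 FPKM) summed to 81.5 to 96.1 FPKM in WT and 50.5 to 74.2 in the knockout libraries. Of the 5 endoderm markers 2 were lower and 2 higher, and the 1 neuroectoderm marker tested did not pass. The 6 endothelial or blood markers summed to at most 6.88 FPKM, with PECAM1, CDH5, TAL1, GATA1 and PTPRC under 1 FPKM in every library. The part of such differences in cell state in the results below was not tested, and in bulk RNA fewer cells of a type and less RNA per cell cannot be told apart.

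With the table as a block, more members were called lower than higher, a split that did not hold under every setting. Of the 186 members, 38 passed the test as lower and 7 as higher when the average of the knockout groups was set against WT (limma on log2(FPKM + 1), with the table as a block and a Benjamini-Hochberg adjusted p under 0.05 over 13909 genes). Over all genes tested the shares were 15.4% lower and 15.8% higher, 31.3% in all. Among all genes with a mean of at least 5 FPKM, the limit set for the members, 18.1% were lower and 16.1% higher. Among the members the shares were 20.4% lower and 3.76% higher, 24.2% in all. The lower share was thus near that of genes above the same limit, while fewer members were higher. The median log2 difference of the members was -0.14 against -0.05 for all genes tested and -0.06 for all 9477 genes with a mean of at least 5 FPKM. Of the members 71.5% lay below 0, against 57.0% of all genes tested and 59.0% of those with a mean of at least 5 FPKM. The changes were mostly small, since 62.9% of the members lay within 0.25 of 0, and 4 passed the test with a difference of at least 1 in size. At that size 3 were higher (1.61%) and 1 was lower (0.538%), beside 5.26% and 1.91% of all genes tested. Of the 3, ZNF391 and ZNF185 had a WT mean under 5 FPKM and so are members only through the knockout libraries. Among members at 5 FPKM or more in both genotypes, 2 differed by at least 1 in size.

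**Figure D1:**
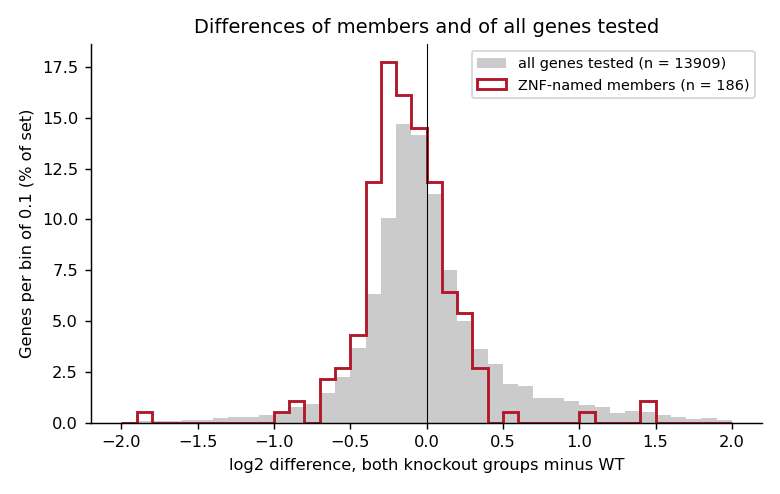
Share of genes (%) in bins of 0.1 of the log2 difference, both knockout groups minus WT, for the 186 members (red line) and all 13909 genes tested (grey), of which 183 lie beyond ±2 and are not drawn. The member distribution sits mostly to the left of 0, with a median of -0.14, and both of its tails are thinner. Called differences of at least 1 in size made up 1.61% (higher) and 0.538% (lower) of the members. Among all genes tested they made up 5.26% and 1.91%.

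Each knockout library had more members below the WT library of its table than above it. Within set A, 67.2% of the members were lower than WT in SNAI1_KO_1 and 63.4% in SNAI1_KO_2, with medians of -0.11 in both. Within set B the shares were 74.7% and 77.4%, with medians of -0.17 and -0.18. Over all genes these shares lay between 54.3% and 56.4%. All 4 differences were negative for 88 members and positive for 18, and 80 were mixed. That is 47.3% and 9.68% of the members, beside 35.1% lower and 26.2% higher in all 4 differences among all genes tested. Both differences of a table share its WT library.

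How many members were called depended on each library. The count of 45 (38 lower, 7 higher) fell to 10 (7 lower, 3 higher) without the WT library of set A and to 12 (6 lower, 6 higher) without that of set B. Without the SNAI1_KO_1 library of set A it was 16 (12 lower, 4 higher), and without that of set B 19 (15 lower, 4 higher). Without the SNAI1_KO_2 library it was 19 (15 lower, 4 higher) and 21 (14 lower, 7 higher). Without the table as a block 4 members remained called, 3 higher (ZNF185, ZNF219 and ZNF391) and 1 lower (ZNF521). The surplus of lower calls was thus absent without the WT library of set B and without the block. Over all genes tested, calls fell in both fits as well, from 4348 to 1065 without the block. Higher calls outnumbered lower ones in both fits (766 against 299 without the block), and slightly so in the main fit (2201 against 2147). A fall in the counts was thus not particular to the members, although without the block it was steeper among them (45 to 4). The 4 members called without the block were also the ones called under each of 16 alternative settings. These settings include a minimum difference of 1, which none of the other called members reached, so by size alone the list could hold no others. The sign of all 45 stayed the same throughout. Leaving out a library could not have changed it. For each of the 45, all 4 knockout libraries lay on the same side of the WT library of their table. The median lay between -0.18 and -0.10 with 1 library left out. Since a mean over all libraries can pass 5 FPKM through 1 genotype alone, members below 5 FPKM in one genotype were counted apart. There were 5 with a WT mean under 5 FPKM, 2 of them called higher, and 8 with a knockout mean under 5 FPKM, 3 of them called lower. The 2 called higher were ZNF185 and ZNF391, which are also among the 4 called without the block. Of the other 173, 35 were called lower and 5 higher, with a median of -0.13.

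**Figure D2:**
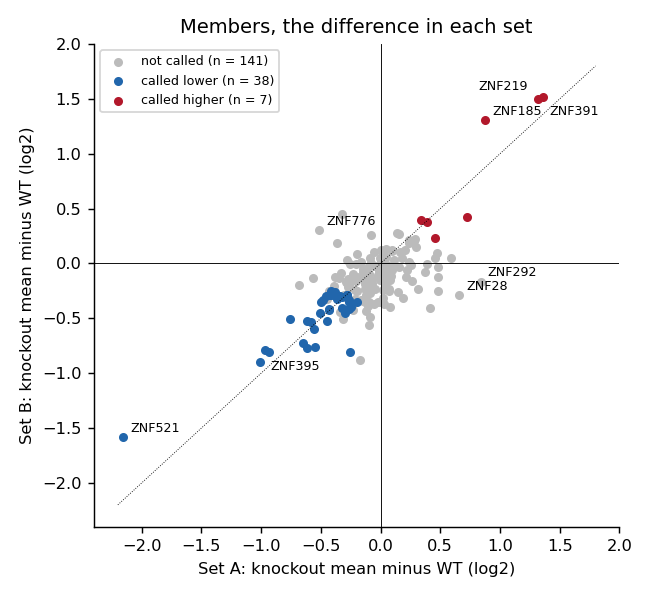
Log2 difference of the mean of both knockout libraries from WT in set A (horizontal axis) and set B (vertical axis), 1 point per member; the dotted line marks equal differences. The 38 members called lower lie at the lower left and the 7 called higher at the upper right, while ZNF28, ZNF292 and ZNF776 have opposite signs in the 2 tables.

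Of the members that were higher, ZNF219, ZNF391 and ZNF185 stood apart from the rest. ZNF219 is a C2H2 repressor known as a partner of SOX9 in cartilage. In WT, SNAI1_KO_1 and SNAI1_KO_2 of set A it read 13.9, 33.5 and 41.5 FPKM, and 19.7, 54.5 and 62.5 in set B. Each of the 4 knockout libraries was above both WT libraries, and the difference of 1.44 ± 0.068 (SE) was the largest rise of any member (adjusted p = 0.000284, limma). In GENCODE 29 the gene overlaps ARHGEF40 and TMEM253 on the opposite strand, and the sources do not say whether strand was used in counting. ARHGEF40 itself moved the other way, with a log2 difference of -0.52 (adjusted p = 0.00393, limma).

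ZNF391, whose function is little described, read 2.65, 8.27 and 8.0 FPKM in WT, SNAI1_KO_1 and SNAI1_KO_2 of set A, and 2.29, 8.46 and 8.17 in set B. The 4 knockout values lay close together and far above WT. It rose by 1.41 ± 0.098 (SE) on the log2 scale (adjusted p = 0.00073, limma), and it is a member only through the knockout libraries. ZNF185 is a LIM domain protein of the actin cytoskeleton and not a C2H2 factor, and no finger was found in its translated reading frame. It read 3.09, 6.71 and 6.33 FPKM in set A and 2.64, 7.55 and 8.43 in set B. All 4 knockout values exceeded WT, by 1.09 ± 0.136 (SE; adjusted p = 0.00408, limma), and this gene too had a WT mean under 5 FPKM.

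SNAI1 protein is known to bind the E-box CAGGTG, which reads CACCTG on the other strand, so the 250 bases before the start of members were searched for these letters in RefSeq promoter windows (build GRCh38.p14). Windows were matched for 161 of the 186 members. Among them 25 genes (15.5%) held the motif in at least 1 window, against 20.6% of all 27305 genes with a window. It was present in 3 of the 7 members called higher and in 4 of the 30 members called lower that had a window. Of these 7, ZNF185, which held it, and ZNF391, which did not, are members only through the knockout libraries. A gene with more windows had more chances of a match. The 7 had 12 windows, 4 of them with the motif (33.3%), and the 30 had 36, 4 of them with it (11.1%). Over the windows of genes tested the share was 15.9%. The windows of the 3 members that rose most, and that of ZNF90 as one that fell, are printed 5′ to 3′ to show what was searched and where it matched, with each match in capitals. The first of 4 windows of ZNF185 held 2 matches, beginning at -191 and -45 from the start, and the single windows of ZNF391, ZNF219 and ZNF90 held none. A match is a description of letters and not a site of binding.
ZNF185, chrX:152914182-152914431, plus strand: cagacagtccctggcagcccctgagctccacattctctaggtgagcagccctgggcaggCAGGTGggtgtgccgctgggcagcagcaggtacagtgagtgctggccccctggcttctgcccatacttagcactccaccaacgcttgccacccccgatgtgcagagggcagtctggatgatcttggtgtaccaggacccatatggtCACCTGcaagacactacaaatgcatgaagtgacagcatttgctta
ZNF391, chr6:27388509-27388758, plus strand: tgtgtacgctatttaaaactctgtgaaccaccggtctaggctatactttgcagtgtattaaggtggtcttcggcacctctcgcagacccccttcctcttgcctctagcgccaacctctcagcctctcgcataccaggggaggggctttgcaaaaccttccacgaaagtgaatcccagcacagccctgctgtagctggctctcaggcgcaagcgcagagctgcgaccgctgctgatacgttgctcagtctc
ZNF219, chr14:21104723-21104972, minus strand: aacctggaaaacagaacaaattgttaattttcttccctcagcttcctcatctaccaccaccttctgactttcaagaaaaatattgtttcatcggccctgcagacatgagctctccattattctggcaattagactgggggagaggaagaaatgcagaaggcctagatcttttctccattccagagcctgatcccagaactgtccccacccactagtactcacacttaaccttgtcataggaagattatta
ZNF90, chr19:20077750-20077999, plus strand: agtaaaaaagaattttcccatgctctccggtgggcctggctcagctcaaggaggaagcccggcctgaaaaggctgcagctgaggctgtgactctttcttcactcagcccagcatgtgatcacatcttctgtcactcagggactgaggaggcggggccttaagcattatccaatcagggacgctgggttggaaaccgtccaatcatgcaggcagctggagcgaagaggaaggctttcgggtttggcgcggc

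The other 4 members that were higher changed less. ZNF232, which carries a SCAN domain, read 10.3, 17.2 and 18 FPKM in set A and 9.26, 12.8 and 12.6 in set B. Its difference was 0.57 ± 0.098 (SE; adjusted p = 0.0109, limma). ZNF143, an activator of promoters of small nuclear RNA genes and of many others, read 10.5, 12.8 and 15.5 FPKM and then 8.60, 11.4 and 11.6. In both genes the knockout libraries exceeded the WT library of their table, and ZNF143 differed by 0.38 ± 0.086 (SE; adjusted p = 0.0244, limma). ZNF589, a KRAB gene, differed by 0.37 and ZNF664 by 0.34. ZNF664 is among the 5 most abundant members, with 42.7 FPKM in WT and 58.0 and 59.5 in the knockout libraries of set A, and 37.3, 45.6 and 42.7 in set B. Its highest WT value equalled its lowest knockout value to 3 digits. ZNF143 lost its call whichever library was left out, ZNF589 kept it in 1 of 6 leave-outs, ZNF664 in 2 and ZNF232 in 4. ZNF664 shares its span with RFLNA and CCDC92, which were also higher (1.64 and 0.56 on the log2 scale), so its level is uncertain where these spans overlap.

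**Figure D3:**
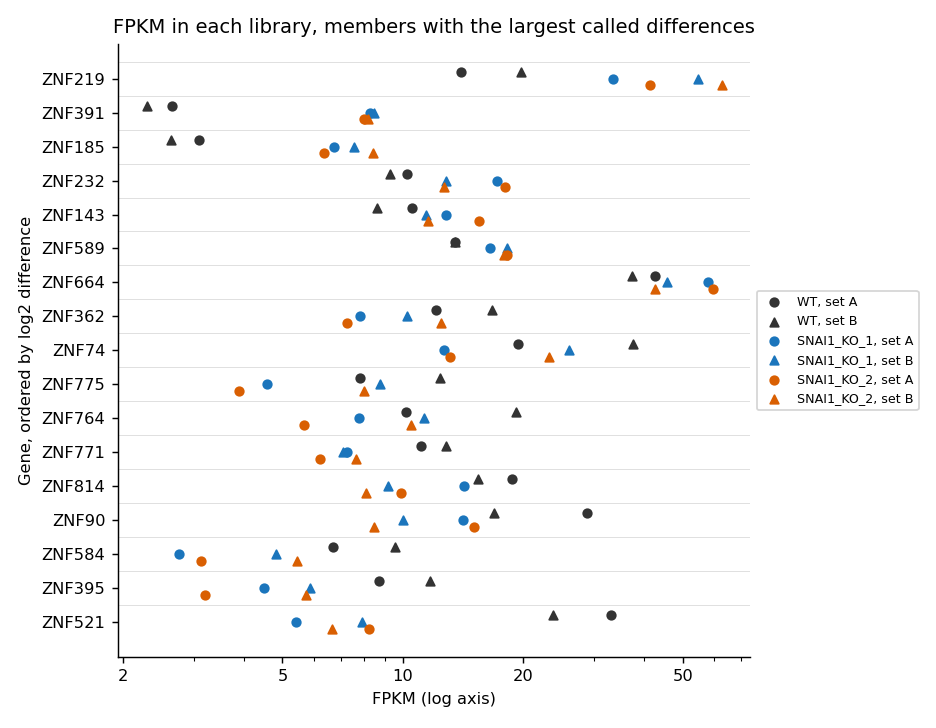
FPKM (log axis) in each of the 6 libraries for the 7 members called higher and the 10 with the largest falls, with circles for set A, triangles for set B and colours for the groups. Knockout and WT points are widely separated for ZNF219, ZNF391, ZNF185 and ZNF521, and they lie close together or mingle across tables for genes such as ZNF664 and ZNF362.

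ZNF521 fell most. It is a large C2H2 cofactor first known from early blood progenitors, which binds and restrains EBF1. In WT, SNAI1_KO_1 and SNAI1_KO_2 it read 33.2, 5.39 and 8.22 FPKM in set A and 23.7, 7.91 and 6.64 in set B. All 4 knockout values were below both WT values, with a log2 difference of -1.87 ± 0.201 (SE; adjusted p = 0.00259, limma). The longest reading frame of ZNF521 held 27 finger motifs, as did that of its paralogue ZNF423, which is known as an EBF and SMAD partner. ZNF423 read 10.4, 7.36 and 7.56 FPKM in set A and 14.5, 10.8 and 10.3 in set B. It fell by 0.43 on the log2 scale with an SE of 0.078 (adjusted p = 0.0135, limma), although its highest knockout value lay above the lower WT value. Its call held in 1 of 6 leave-outs.

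Other regulators of development on the hand-fixed list of roles moved less or did not pass the test. Of the 23 members on that list 5 were lower (21.7%), 1 was higher (4.35%) and 17 did not pass, with a median of -0.19. These shares were near those of all members (20.4% and 3.76%). ZNF703, a corepressor of the NET family, read 6.58, 5.54 and 4.62 FPKM in set A and 17.6, 12.8 and 13.2 in set B, a log2 difference of -0.36 (adjusted p = 0.0368, limma). ZNF335, a component of a histone methyltransferase complex, fell by 0.32 on the log2 scale with 7.49, 5.76 and 5.79 FPKM in set A and 8.47, 6.56 and 6.77 in set B. Neither call held when any 1 library was left out. ZNF609, a cohesin loader partner in neural progenitors, read 22.7, 12.7 and 17.8 FPKM and then 15.3, 12.6 and 15.5, so 1 knockout library was above its WT. The groups together did not pass (adjusted p = 0.0823, limma), while SNAI1_KO_1 alone was lower by a log2 difference of -0.53 (adjusted p = 0.0466, limma) and SNAI1_KO_2 alone did not pass (-0.16, adjusted p = 0.435, limma).

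ZNF281 and ZNF217 stayed near their WT levels. ZNF281, a regulator of pluripotency genes, read 16 and 18.8 FPKM in WT and 17.3 to 18.7 in the 4 knockout libraries (log2 difference 0.05 ± 0.071, SE). ZNF217, a partner of corepressor complexes, read 16.5 and 15.6 FPKM in WT and 14.6 to 16.9 in the knockout libraries, with 0.01 ± 0.082 (SE). ZNF148 (-0.33, adjusted p = 0.182, limma) and the trio ZNF592, ZNF687 and ZNF532, which share a chromatin complex, did not pass the test, with differences of -0.13, -0.19 and 0.12. ZNF462 and ZNF398, both known in pluripotent cells, and ZNF503 were on the list but had means of 4.62, 4.58 and 2.59 FPKM and so are no members. ZNF462 was lower, with -0.49 (adjusted p = 0.0431, limma), and ZNF398 (-0.30) and ZNF503 (0.26) did not pass.

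Proteins were sorted by motifs found in the longest reading frame of their GENCODE 29 transcripts. The members carried 0 to 32 C2H2 motifs, with a median of 9. A KRAB motif was found in 82 members, and in 104 it was not. Divergent KRAB boxes can be missed by this search. Of the KRAB genes 13 were lower (15.9%), 1 was higher (1.22%) and 68 did not pass, with a median difference of -0.16. Of the others 25 were lower (24.0%), 6 higher (5.77%) and 73 did not pass, with a median of -0.13. Over all genes tested 15.4% were lower and 15.8% higher. KRAB genes were less abundant, with a median mean level of 7.39 FPKM against 11.9. The 12 SCAN genes held 2 that were lower (ZNF397 and ZNF394), 1 that was higher (ZNF232) and a median of -0.17. Members with 0 or 1 finger motif numbered 16, with a median of -0.14. The 27 with 15 or more had a median of -0.09, with 7 lower (25.9%) and 0 higher. No difference between these classes was tested.

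ZNF584, ZNF90, ZNF814, ZNF764 and ZNF74 were the KRAB genes among the 10 largest falls. ZNF90, one of the fast-evolving KRAB genes of chromosome 19, read 28.9, 14.1 and 15.1 FPKM in set A and 16.9, 10.02 and 8.45 in set B. Its knockout values were below both WT values, with a log2 difference of -0.87 ± 0.094 (SE; adjusted p = 0.00263, limma). ZNF584 read 6.70, 2.75 and 3.13 FPKM in set A and 9.58, 4.81 and 5.45 in set B, a log2 difference of -0.88 ± 0.102 (SE; adjusted p = 0.00318, limma). Its groups did not overlap, and with a knockout mean under 5 FPKM it is a member only through WT.

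ZNF814 read 18.7, 14.2 and 9.86 FPKM in set A and 15.4, 9.18 and 8.10 in set B, which gave -0.69 (adjusted p = 0.00643, limma). ZNF764 fell by 0.66 and ZNF74 by 0.58 on the log2 scale. For ZNF74, which read 19.4, 12.7 and 13.1 FPKM and then 37.6, 26 and 23.2, the knockout values of set B lay above the WT value of set A, and the fall shows only within tables. The calls of ZNF90 and ZNF584 held in all 6 leave-outs. ZNF74 lost its call without the WT library of set B, and ZNF814 and ZNF764 lost theirs without either WT library. KRAB genes have close paralogues, and fragments shared between copies could have been split in the authors' quantification, so single KRAB genes are uncertain.

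The 4 KRAB proteins of the list of roles that act on transposable elements, imprints or ZNF genes did not pass the test. ZNF91, which silences SVA retrotransposons, read 8.94, 7.83 and 7.47 FPKM in set A and 6.14, 4.96 and 5.04 in set B, a log2 difference of -0.23 (adjusted p = 0.11, limma). ZNF93, which binds L1 elements, read 19.7, 25.3 and 29.8 FPKM and then 12.9, 13.8 and 12.9, a difference of 0.25 (adjusted p = 0.18, limma). ZNF91 was below WT in all 4 differences and ZNF93 above it. ZNF445, a keeper of imprints, and ZNF274, which binds the ends of other ZNF genes, had differences of -0.21 and -0.25 (adjusted p = 0.2 and 0.117, limma).

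The remaining large falls were of genes without a KRAB motif. ZNF395, a factor linked to hypoxia responses with 1 finger motif, read 8.70, 4.50 and 3.20 FPKM in set A and 11.7, 5.85 and 5.71 in set B. All knockout values were below both WT values, with -0.96 ± 0.113 (SE; adjusted p = 0.00345, limma), and the call was lost without the WT library of set A. Its knockout mean was under 5 FPKM, so it is a member only through WT. ZNF771 (-0.69), ZNF775 (-0.63) and ZNF362 (-0.57) completed the 10 largest falls. ZNF771 read 11.1 and 12.8 FPKM in WT and 6.20 to 7.64 in the knockout libraries, and its call was lost without either WT library. That of ZNF775 was lost without the WT library of set A, and that of ZNF362 without either WT library or the SNAI1_KO_1 library of set B. The other 28 members called lower had differences between -0.56 and -0.27. Among them ZNF358 (-0.48), chosen here after its values were seen, was the one whose call held in all 6 leave-outs.

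Of the 5 most abundant members ZNF664 alone, described above, was called. ZNF207, which helps assemble the spindle, had the highest mean, 90.2 FPKM, with 102, 96.3 and 98.2 in set A and 89.4, 80.9 and 73.9 in set B. Every knockout value was below the WT value of its table, yet the difference of -0.14 ± 0.061 (SE) did not pass (adjusted p = 0.143, limma). ZNF787 (59.9 FPKM, -0.21, adjusted p = 0.0509, limma), ZNF146 (56.0 FPKM, -0.12) and ZNF598 (54.0 FPKM, -0.16) did not pass either. ZNF598 is a ubiquitin ligase that marks collided ribosomes. Of the other genes for RNA and ribosomes, ZNF638, a nuclear RNA-binding protein, read 35.8, 30.01 and 32.2 FPKM and then 30.9, 22.7 and 25.4, a log2 difference of -0.27 (adjusted p = 0.032, limma) whose call held in 0 of 6 leave-outs. ZNF622, a factor of large ribosomal subunit maturation, was above WT in all 4 differences but did not pass (0.22, adjusted p = 0.0551, limma). ZNF326, which acts at the link of transcription and splicing, had -0.19, and ZNF24, a SCAN protein, had 0.06, and neither passed.

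The proteins that KRAB factors work with were read from a list of corepressor and H3K9 methylation genes, of which 31 were tested. Of these 11 were lower (35.5%), 0 were higher and 20 did not pass, with a median of -0.15. Over all genes tested 15.4% were lower and 15.8% higher. The listed genes had a median level of 34.3 FPKM and a median SE of 0.069, against 10.3 FPKM and 0.102 for all genes tested. Smaller differences could therefore pass the test in this list. TRIM28, the partner of the KRAB domain, read 418 FPKM on average and fell by 0.39 on the log2 scale with an SE of 0.042 (adjusted p = 0.00268, limma). CHD3, a remodelling subunit of the NuRD complex, had the largest difference, -0.93 (adjusted p = 0.002, limma). The other genes called lower were MORC2, SUV39H1, EHMT2, EHMT1, MTA1, MTA2, CHD4, ATF7IP and TRIM24, between -0.42 and -0.20. SETDB1, the H3K9 methyltransferase that TRIM28 brings in, did not pass, with -0.02 ± 0.102 (SE), and neither did DNMT1, ATRX and MPHOSPH8, with -0.02, 0.02 and 0.07.

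**Figure D4:**
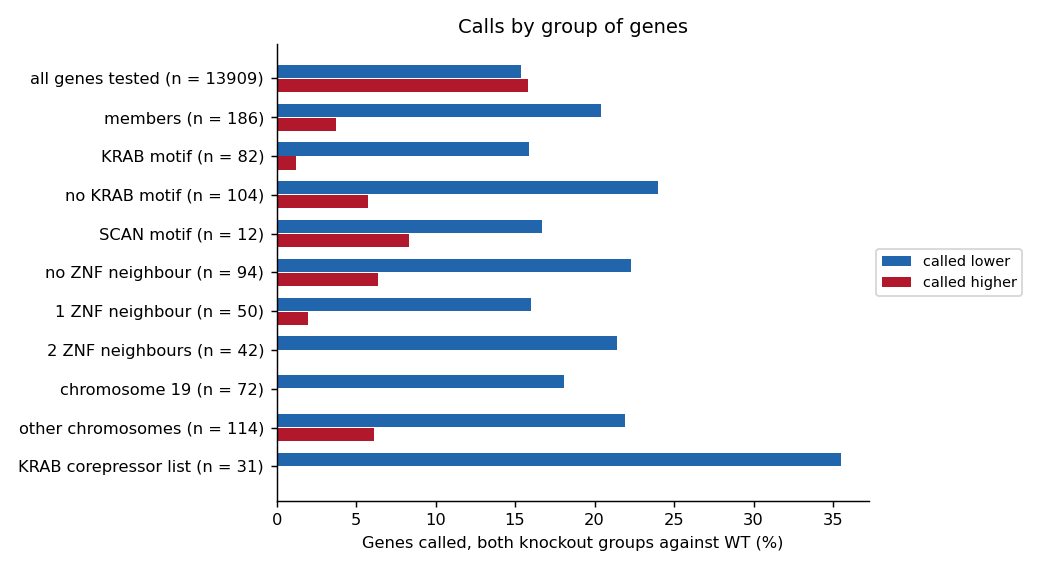
Share of genes (%) called lower (blue) and higher (red) in both knockout groups against WT, by group of genes, with the number of genes beside each name. Among the members 20.4% were lower and 3.76% higher, against 15.4% and 15.8% of all genes tested, and no member on chromosome 19 was called higher.

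Many ZNF genes lie side by side. In the GENCODE 29 annotation 72 members lay on chromosome 19, of which 13 were lower (18.1%) and 0 higher, with a median of -0.16. On other chromosomes 25 of 114 were lower (21.9%) and 7 higher (6.14%), with a median of -0.14. Over all genes tested 15.4% were lower and 15.8% higher. Members with another ZNF gene on both sides numbered 42 (9 lower, 0 higher), those with 1 such neighbour 50 (8 lower, 1 higher) and those with none 94 (21 lower, 6 higher). There were 32 pairs of adjacent members. Both genes had a negative difference in 22 pairs (68.8%), and in 24 pairs both had the same sign. Pairs of members that are not adjacent were not counted, so whether neighbours moved together was not tested. Both genes were called in 1 pair, ZNF480 and ZNF766. Gene spans overlapped another gene on the opposite strand for 112 members, 28 of them called, and on the same strand for 67, 21 of them called. There were 50 members with no overlap, 12 of them called. Of all members 24.2% were called, and of all genes tested 31.3%. Some members overlap genes on both strands.

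Each knockout group was also set against WT on its own, and both comparisons share the WT libraries. In SNAI1_KO_1 22 members were lower and 6 higher (11.8% and 3.23%), beside 10.9% lower and 13.0% higher of all genes tested. In SNAI1_KO_2 22 were lower and 7 higher (11.8% and 3.76%), beside 12.0% lower and 13.5% higher of all genes tested. The share of lower members was thus near that of all genes in each group, while fewer were higher. The medians were -0.14 and -0.15. For ZNF521 the log2 differences were -1.95 in SNAI1_KO_1 and -1.79 in SNAI1_KO_2, and for ZNF391 they were 1.43 and 1.39.

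Between the knockout groups 0 members and 0 of all genes were called by limma, and 4 members (2.15%) had an unadjusted p under 0.05, beside 3.75% of all genes tested. The smallest was that of ZNF219, which was higher in SNAI1_KO_2 by 0.25 (unadjusted p = 0.0231). ZNF544 and ZNF814 followed, each lower in SNAI1_KO_2 by 0.32 (unadjusted p = 0.0312 and 0.035). ZNF544 read 32.8 and 22.3 FPKM in SNAI1_KO_1, 22.6 and 20.3 in SNAI1_KO_2 and 26.3 and 19.4 in WT. The median SE of this comparison among the members was 0.111. Differences well above their SE did not pass after adjustment either, such as that of ZNF219 (SE 0.078). The absence of calls therefore does not show that the knockout groups were alike.

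The levels of some members differed widely between the tables. ZNF579 read 14 FPKM in the WT library of set A and 41.0 in that of set B, ZNF598 read 32.4 and 84.4, and ZNF703 read 6.58 and 17.6. In the other direction, ZNF724 read 9.07 and 4.82 FPKM and ZNF90 28.9 and 16.9. The transcripts of the first 3 had a GC content of 65.2% to 66.6%, and those of ZNF724 and ZNF90 had 39.7% and 39.8%. Of the 78 members with a transcript GC of at least 50%, 57 were higher in the WT library of set B, and of the 108 under 50%, 21 were. Across the 186 members the WT difference between tables followed GC with a Pearson r of 0.725, a description over genes of the same 2 libraries. The knockout difference, taken within tables, had an r of -0.0846 with GC.

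**Figure D5:**
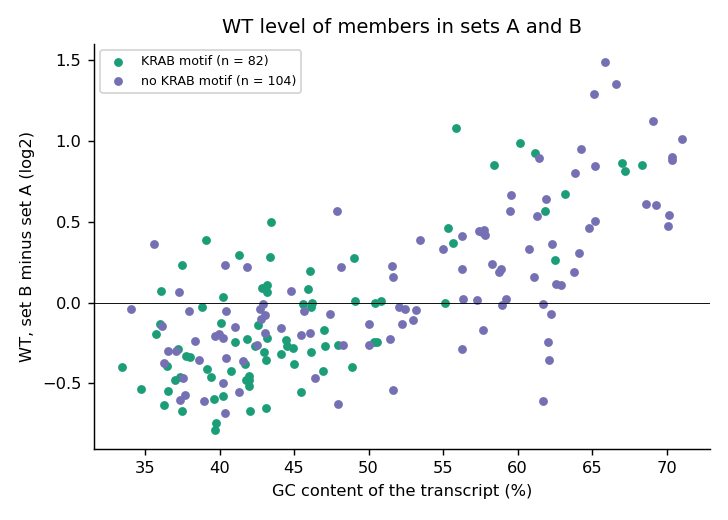
Log2(FPKM + 1) of WT in set B minus set A (vertical axis) against the GC content of the longest-frame transcript (%, horizontal axis), 1 point per member, coloured by KRAB motif. Transcripts under 50% GC lie mostly below 0 (21 of 108 above) and those of 50% or more mostly above (57 of 78).

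In 3 members the knockout difference itself differed most between tables. ZNF292 read 16.7 FPKM in the SNAI1_KO_2 library of set A and 2.60 to 4.04 in the other 5, and ZNF28 read 16.6 there and 4.49 to 9.0 in the others. A single library thus set both apart. ZNF776 read 7.34, 5.03 and 4.65 FPKM in set A and 4.99, 5.54 and 7.36 in set B, with opposite order of WT and knockout. None of the 3 passed the test.

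The members nearest the limit of 5 FPKM were ZNF784 with a mean of 5.02, ZNF417 with 5.06 and ZNF224 with 5.06. Just outside it were ZNF189 with 4.93, ZNF133 with 4.93 and ZNF85 with 4.97 FPKM. Of the 194 ZNF-named genes from 1 to under 5 FPKM, 17 were lower and 6 higher (8.76% and 3.09%). Beside them stand 15.4% lower and 15.8% higher of all genes tested, whose median level was higher (10.3 against 2.86 FPKM). The lower share was thus below that of all genes tested. The median difference of the 194 genes, -0.13, was near that of the members.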

How the data were processed

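RNA-seq was done on 6 libraries of H1 cells. The authors deposited FPKM values per gene symbol in 2 tables (sets A and B) with 1 library of every group each. The submitters' processing notes name BWA, Bowtie and RSEM and build hg19, without versions or roles. Per-sample columns not used numbered 0. Symbols repeated in a table (94 and 340) were left out, which left 37803 in both tables. Genes with a mean of at least 1 FPKM (13909) were tested on log2(FPKM + 1), which understates changes of low genes. A model with the 3 groups and the table as a block was fitted in limma 3.58.1 (R 4.3.3) with a mean-variance trend and 2 residual degrees of freedom. Its code was also run on data simulated from the fitted model itself, which cannot show how well the model suits these libraries. Two-sided p-values were corrected over the 13909 genes (Benjamini-Hochberg, threshold 0.05). Libraries are paired by table: the difference between tables in WT correlated across genes with that in SNAI1_KO_1 (r = 0.616) and SNAI1_KO_2 (r = 0.666), and those of the knockout groups with each other (r = 0.676). The number of libraries limits the precision.

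Gene position, overlap and neighbours came from GENCODE 29 (GRCh38, another build than that of the files, so gene coordinates are not given). Motifs were read from the longest reading frame of each gene's coding transcripts: C2H2 fingers, a SCAN box, and a KRAB A box called at 13 of 19 conserved positions. Promoter sequences are RefSeq's.

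The members, gene lists and tests were chosen with earlier results of these data known. Named genes were SNAI1, the 10 largest called rises (7 existed) and falls, the 5 most abundant members, 3 on either side of 5 FPKM, a list of genes with known roles, the 3 with the smallest p between knockout groups and the 3 that differed most between tables. Other genes named in lists were chosen after their values were seen. Alternatives were the fit without the block, pseudocounts of 0.1 and 10, other filters, 3 other scalings, no trend, a minimum difference of 1 and leaving out each library.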

Additional observations from a re-analysis of the deposited data

How the results depend on the processing

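Of the 45 members called in both knockout groups together, 4 passed without the table as replicate block, 12 (9 lower, 3 higher) without a filter on low values, 4 with a difference of at least 1, and 10 to 21 with 1 library left out. For SNAI1_KO_1 alone (28) these counts were 3, 4, 4 and 3 to 14, and for SNAI1_KO_2 alone (29) they were 3, 5, 5 and 6 to 15. Under the other pseudocounts, filter, scalings and model these 3 counts stayed within 1.5 times. The count between the knockout groups was 0 throughout. The median of -0.14 was -0.079 with a pseudocount of 10 and between -0.182 and -0.095 with 1 library left out, and it moved by less than the spread of the within-table medians otherwise. Fewer samples, or more genes with low values, enter some of these fits, and otherwise the cause was not tested. The subset of 173 members at 5 FPKM or more in both genotypes was chosen after seeing the data and gave 40 calls.

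Sign changes were seen only in genes that did not pass. For the called members, leaving out a library could not change the sign, as described above. ZNF417 gave 0.0051 with median-ratio scaling, 0.0902 without WT replicate 2 (replicate 1 is that of set A) and 0.0372 without SNAI1_KO_1 replicate 2. ZNF217 gave -0.0188 with equal library means, -0.0368 without SNAI1_KO_2 replicate 1 and -0.0399 without SNAI1_KO_1 replicate 2, in a range up to 0.0579. Without WT replicate 1, ZNF281 gave -0.021, ZNF532 -0.0169, ZNF292 -0.165, ZNF28 -0.291 and ZNF776 0.305. Without SNAI1_KO_2 replicate 1, ZNF292 gave -0.162, ZNF28 -0.356 and ZNF776 0.0811. ZNF28 gave -0.12 without SNAI1_KO_1 replicate 2, and ZNF24 gave -0.000316 without WT replicate 2. The other ends of the leave-out ranges were 0.118 for ZNF281, 0.254 for ZNF532, 0.838 for ZNF292, 0.72 for ZNF28, -0.516 for ZNF776 and 0.127 for ZNF24. Of 752 values of 47 named genes under the alternatives, 104 lost a call, 8 gained one, 16 changed sign and 624 kept both.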

Other observations

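Related families with at least 1 FPKM were read beside the members, with no test between families. Of 31 ZBTB genes, which pair a BTB domain with C2H2 fingers, 3 were lower (9.68%) and 0 higher, and their median log2 difference was -0.13. Of 14 ZSCAN genes 1 was lower and 2 were higher (median -0.15), of 7 ZKSCAN genes none passed limma's test although all 7 lay below 0 (median -0.16), and of 12 ZFP genes 1 was lower and 1 higher (median -0.12). Over all genes tested 15.4% were lower and 15.8% higher, and the median was -0.05. The median level of all genes tested was 10.3 FPKM, above those of these families (4.04 to 6.9 FPKM).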
